A study of Mus musculus with 2 samples.

Results

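The genes described here encode the subunits of the vacuolar proton pump (V-ATPase), the carbonic anhydrases and the kidney ammonia channels, together with the transcription factor Foxi1. A gene was a member if its platform symbol began with Atp6v or Atp6ap, was Car followed by a number, or was Rhbg, Rhcg or Foxi1. The rule found 42 members among the 22180 genes that had a probe set with a single symbol. They are 21 V-ATPase subunit genes, 3 accessory genes, 14 carbonic anhydrases, Rhbg, Rhcg, Foxi1 and Atp6v1fnb, which matched by its name alone and is not a pump subunit. Of these, 29 reached a log2 value of 6 in at least 1 array, as did 7671 of all genes. This expression floor was used for counts of differences, except where genes below it are mentioned.

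The study asked how loss of Iah1, an esterase homolog, changes kidney gene expression. The Iah1-KO group was male mice that lacked Iah1 in the whole body, and the Iah1-WT group was male wild-type mice. Both groups ate standard chow up to 6 weeks of age and then a high-fat diet during 12 weeks, were caged singly, and went without food for 4 hours before tissue was taken. The labels name neither the strain nor the deleted part of Iah1. Kidney RNA of 3 mice was pooled for each genotype and hybridised to 1 Affymetrix array, so each gene has 1 value per genotype. No spread between mice, no standard deviation and no test between genotypes exists for any value below; precision is limited by the number of arrays. Iah1 itself was at 3.60 in the Iah1-KO pool, below that array's median of 4.03, and at 9.09 in the Iah1-WT pool.

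The V-ATPase moves protons across membranes at the cost of ATP. Its V1 sector sits in the cytosol and splits ATP, and its V0 sector lies in the membrane and carries the protons. Nearly all cells use it to acidify lysosomes and endosomes. The intercalated cells of the collecting duct also place it in the plasma membrane to secrete acid, and for several subunits they use isoforms of their own. Carbonic anhydrases form bicarbonate and protons from carbon dioxide and water, and Rhbg and Rhcg let ammonia cross the membranes of the same cells. Foxi1 is the transcription factor that intercalated cells need in order to form, and in mice it activates pump subunit genes.

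Most of the 29 members above the floor were close to equal in the Iah1-KO and Iah1-WT pools. The exceptions were Atp6v1g3, the intercalated cell isoform of the G subunit, and Car4, a membrane-anchored carbonic anhydrase, both lower in the Iah1-KO pool. Atp6v1g3 was the only one of the 29 that was at least 1.5-fold lower, and 0 were at least 1.5-fold higher. Among all 7671 genes, 0.209% were at least 1.5-fold lower and 0.222% at least 1.5-fold higher. The median difference, Iah1-KO minus Iah1-WT on the log2 scale, was -0.03 over the 29 members and 0.01 over all genes. Differences lay below 0 for 17 members and above 0 for 12, and 47.6% of all genes lay below 0. The middle 95% of all genes lay between -0.30 and 0.35, with 2.5% on either side. Atp6v1g3 and Car4 lay below this range and 0 members lay above it.

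**Figure D1:**
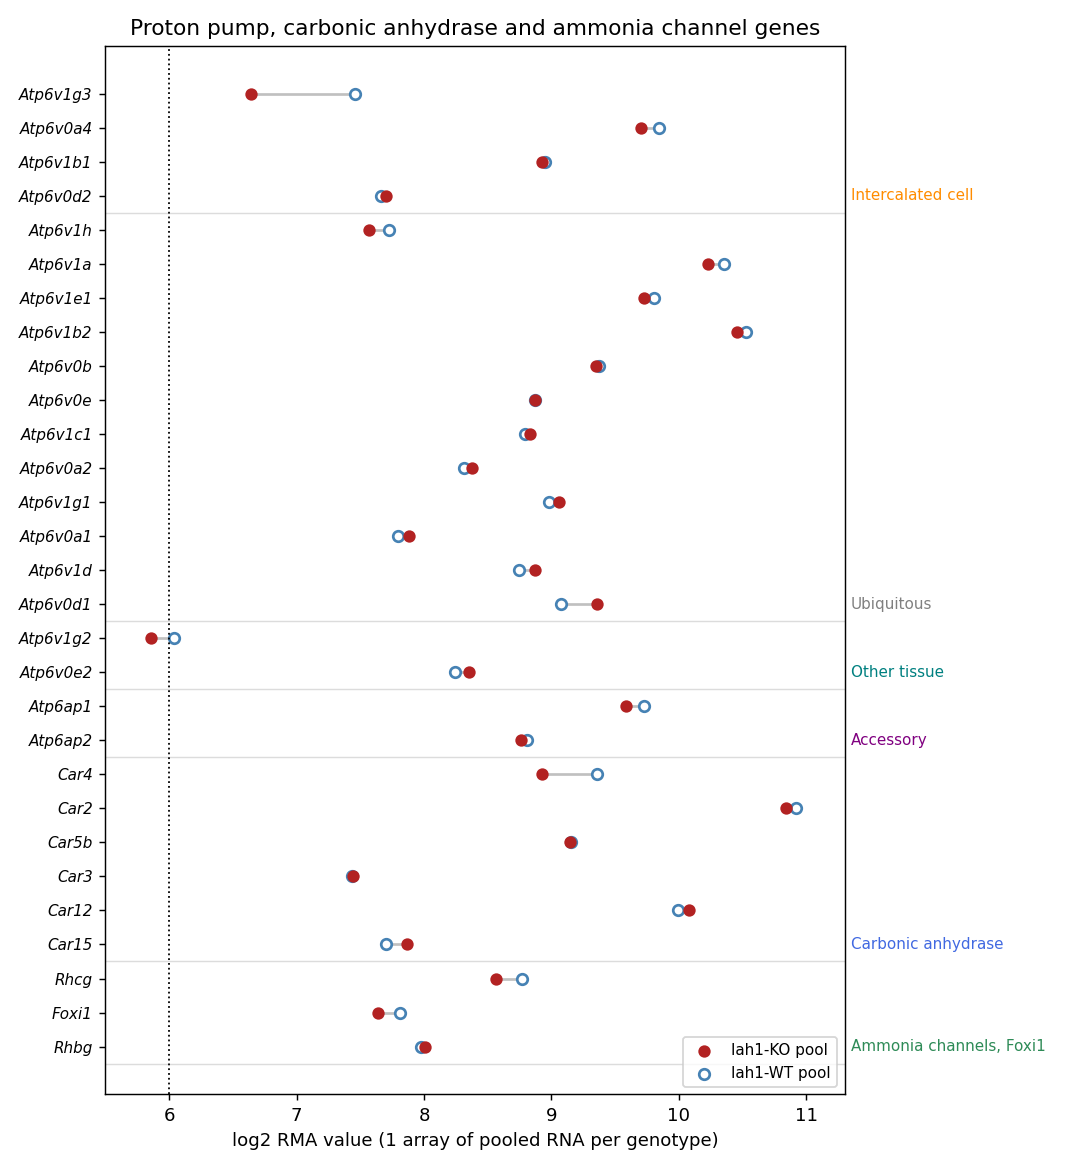
Log2 RMA values of the 29 genes above the floor in the Iah1-KO pool (filled) and the Iah1-WT pool (open), with 1 array of pooled RNA per genotype. The dotted line is the floor of log2 6. The circles nearly coincide for most genes and stand apart for Atp6v1g3 (6.64 in the Iah1-KO pool, 7.46 in the Iah1-WT pool) and Car4 (8.93 and 9.36); positions of different genes cannot be compared, since each gene has its own probes.

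The 5 intercalated cell isoforms were examined first. Atp6v1g3 was at log2 6.64 in the Iah1-KO pool and 7.46 in the Iah1-WT pool, a difference of -0.81, or 1.76-fold lower. It ranked 5 from the bottom of the 7671 genes, and the robust SD of the differences was 0.13 among the 500 genes nearest to it in mean value. The G subunit is part of the stalk that holds the V1 sector in place. The other isoforms did not share this difference. Atp6v0a4, an isoform of the membrane subunit along which protons pass, was at 9.71 in the Iah1-KO pool and 9.85 in the Iah1-WT pool, a difference of -0.14. Atp6v1b1, the isoform of the nucleotide-binding B subunit, was at 8.92 in the Iah1-KO pool and 8.95 in the Iah1-WT pool, a difference of -0.03. In humans, mutations of the genes for these a4 and B1 isoforms cause distal renal tubular acidosis. Atp6v0d2, which is also the d isoform of osteoclasts, was at 7.70 in the Iah1-KO pool and 7.66 in the Iah1-WT pool, a difference of 0.03. Atp6v1c2, an isoform of the subunit that takes part in the reversible joining of the V1 and V0 sectors, lay below the floor, at 5.21 in the Iah1-KO pool and 5.34 in the Iah1-WT pool. The median of the 4 isoforms above the floor was -0.08, and without Atp6v1g3 it was -0.03. Each isoform gene had 1 probe set, so no second probe set was at hand to set beside the difference of Atp6v1g3.

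The promoters of these isoforms are shown because the genes belong to the same cell type and differed unequally. Promoter sequences of GRCm38.p6 from RefSeq covered 29 of the 42 members and 4 of the 5 intercalated cell isoforms; the window ran from 250 bases before the start site to 50 bases after it. The bases before the start site are given for the isoform that differed most and for the a4 and B1 isoforms, 5′ to 3′ on the strand of the gene, with a match to the forkhead motif TGTTTAC in capitals. Forkhead proteins, Foxi1 among them, bind motifs of this kind. The stretches lie at chr1:138273488-138273737 (plus strand) for Atp6v1g3, chr6:38124587-38124836 (minus strand) for Atp6v0a4 and chr6:83742767-83743016 (plus strand) for Atp6v1b1.
Atp6v1g3: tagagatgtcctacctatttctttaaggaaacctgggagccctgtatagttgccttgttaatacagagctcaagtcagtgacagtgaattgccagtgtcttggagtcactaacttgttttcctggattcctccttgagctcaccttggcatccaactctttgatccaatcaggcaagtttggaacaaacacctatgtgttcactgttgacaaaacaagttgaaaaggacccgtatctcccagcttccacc
Atp6v0a4: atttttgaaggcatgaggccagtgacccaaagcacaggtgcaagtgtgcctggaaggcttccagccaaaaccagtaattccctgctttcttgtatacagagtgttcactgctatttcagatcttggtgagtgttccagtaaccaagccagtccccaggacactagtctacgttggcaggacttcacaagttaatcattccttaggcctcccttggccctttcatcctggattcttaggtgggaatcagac
Atp6v1b1: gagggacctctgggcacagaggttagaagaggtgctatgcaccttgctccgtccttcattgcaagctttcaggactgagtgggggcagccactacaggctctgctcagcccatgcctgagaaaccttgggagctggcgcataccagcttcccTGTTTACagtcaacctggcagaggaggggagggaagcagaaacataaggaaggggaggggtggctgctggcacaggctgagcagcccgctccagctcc
On both strands of the whole window, TGTTTAC was found in the Atp6v1b1 promoter alone among the 4, where it began 98 bases before the start site. None of the other members with a promoter sequence held it, and it was found for 4.05% of the 27025 genes in the promoter table. Atp6v1g3 (-0.81) and Atp6v0a4 (-0.14) had no match, and Atp6v1b1 with its match differed by -0.03. Only the exact letters TGTTTAC were searched, so a promoter without a match may still hold other forms of the forkhead motif. The Atp6v1g3 stretch, for example, holds acaaaca, which reads TGTTTGT on the other strand and shares TGTTT with the motif. Such forms were not searched, so these values set no contrast between genes with and without forkhead sites. These promoters also held few CpG dinucleotides in 3 of the 4 genes: 2 in Atp6v1g3, 1 in Atp6v0a4 and 3 in Atp6v1b1, against 22 in Atp6v1c2 and a median of 7 over all 32851 promoters. A match describes the letters of this window and shows no binding.

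Foxi1 and the ammonia channels, all expressed in intercalated cells, differed less than Atp6v1g3. The channels are not markers of these cells alone. Foxi1 was at 7.64 in the Iah1-KO pool and 7.81 in the Iah1-WT pool, a difference of -0.18. Rhcg, the ammonia channel of the apical and basolateral membranes, was at 8.57 in the Iah1-KO pool and 8.77 in the Iah1-WT pool, a difference of -0.20. Rhbg, its basolateral relative, was at 8.00 in the Iah1-KO pool and 7.97 in the Iah1-WT pool, a difference of 0.03. The robust SD of genes at these levels was 0.13 for Foxi1 and 0.11 for both Rhcg and Rhbg, so the values for Foxi1 and Rhcg lay 1.37 and 1.85 such SDs from 0, against 6.17 for Atp6v1g3. Over the 4 isoforms above the floor, Rhbg, Rhcg and Foxi1 together, 5 differences lay below 0 and 2 above, with a median of -0.14.

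Other markers of intercalated cells gave no common direction. Of 20 listed markers outside the members, 11 were above the floor, with 7 below 0, 4 above 0 and 0 beyond 1.5-fold. Their median difference was -0.09, while their mean log2 value was 7.20 in the Iah1-KO pool and 7.19 in the Iah1-WT pool. Slc4a1, the anion exchanger of acid-secreting cells, was at 6.76 in the Iah1-KO pool and 6.58 in the Iah1-WT pool. Slc26a4, the exchanger pendrin of base-secreting cells, was at 7.61 in the Iah1-KO pool and 7.70 in the Iah1-WT pool. The receptor gene Oxgr1 differed by 0.39, Bsnd, a chloride channel subunit that is also present in the loop of Henle, by -0.35, Atp4a, the catalytic subunit of the gastric proton-potassium pump, by 0.31, and the receptor kinase gene Kit by 0.28. In whole kidney RNA, fewer cells of a type cannot be told apart from less RNA per cell. Principal cell markers, the neighbours of intercalated cells in the collecting duct, numbered 10 above the floor, 5 on each side of 0, and their median was 0.04. Of these the water channels Aqp4 and Aqp2 differed by 0.57 and 0.49, both above the middle 95% of all genes. The sodium channel subunit Scnn1g differed by 0.16 and the potassium channel gene Kcnj1 by -0.16. The part of cell composition in the difference of Atp6v1g3 was not tested.

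The ubiquitous subunits, those of the pump in most cells, were centred near 0. Of 13 genes with a probe set, 12 were above the floor, 6 of them below 0 and 6 above, between -0.15 and 0.28, with a median of 0.02. In the V1 sector Atp6v1a, the catalytic subunit, was at 10.23 in the Iah1-KO pool and 10.36 in the Iah1-WT pool, a difference of -0.13. Atp6v1h, a subunit that regulates the complex, was at 7.57 in the Iah1-KO pool and 7.72 in the Iah1-WT pool, a difference of -0.15. Atp6v1d, of the central rotor, was at 8.87 in the Iah1-KO pool and 8.74 in the Iah1-WT pool, a difference of 0.13. The remaining V1 genes lay between these. Atp6v1e1, of the stalk, differed by -0.08, Atp6v1b2 by -0.07, Atp6v1c1 by 0.04 and Atp6v1g1, the widespread G isoform, by 0.08. The V1 median was -0.07 over 7 genes, and the eighth, Atp6v1f, was below the floor at 4.02 in the Iah1-KO pool and 3.84 in the Iah1-WT pool.

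In the V0 sector the median was 0.06 over 5 genes. Atp6v0d1, which joins the rotor of V1 to the proton-carrying ring, was at 9.36 in the Iah1-KO pool and 9.08 in the Iah1-WT pool. Its difference of 0.28 was the highest of the 29 members, at 3.23 local robust SDs, and still inside the middle 95% of all genes. The membrane subunit genes Atp6v0a1 and Atp6v0a2 differed by 0.09 and 0.06, Atp6v0b of the ring by -0.03, and the small subunit gene Atp6v0e by 0.00. Atp6v0c, the main ring subunit, was not analysed here, since no probe set carried its symbol alone.

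Among the genes with isoforms for other tissues, Atp6v0e2 was at 8.35 in the Iah1-KO pool and 8.24 in the Iah1-WT pool. Atp6v1g2, the G isoform of neurons, was at 5.86 in the Iah1-KO pool and 6.04 in the Iah1-WT pool and so reached the floor only in Iah1-WT. Atp6v1e2, the isoform of testis, was below it. Of the accessory genes, Atp6ap1, a glycoprotein needed for assembly of V0, was at 9.59 in the Iah1-KO pool and 9.72 in the Iah1-WT pool, and Atp6ap2, known as the prorenin receptor, at 8.76 in the Iah1-KO pool and 8.81 in the Iah1-WT pool. The accessory differences above the floor, -0.14 and -0.04, were smaller than that of Atp6v1g3.

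**Figure D2:**
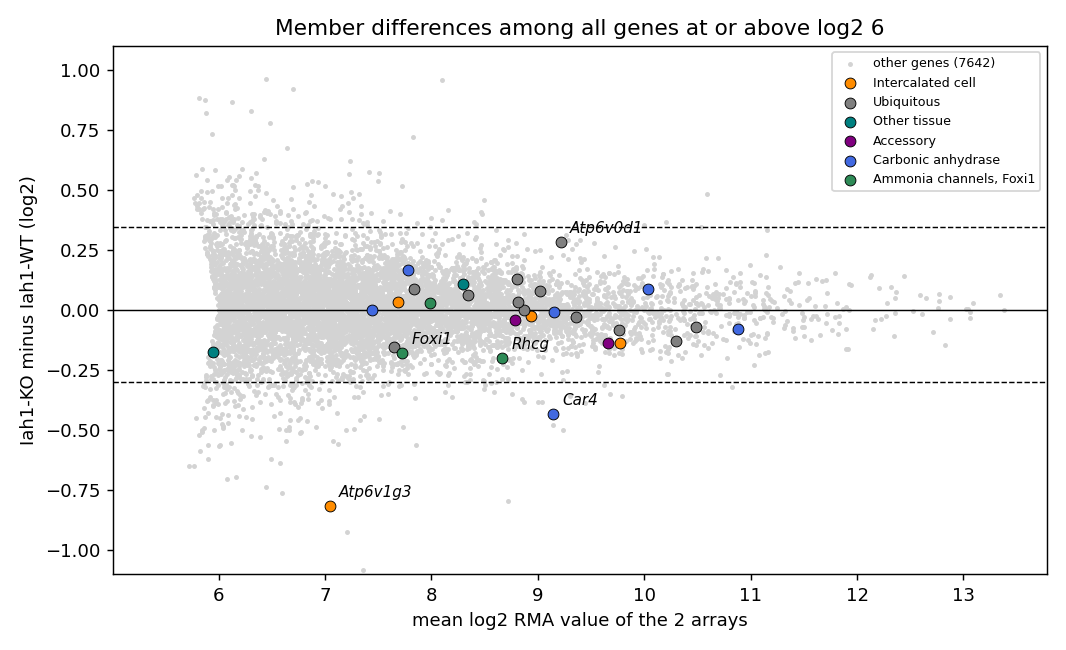
Difference of each gene (Iah1-KO minus Iah1-WT, log2) against its mean log2 value, for the 29 members (coloured by class) and the other genes above the floor (grey); dashed lines mark the middle 95% of all genes and 3 genes beyond 1.1 either way lie outside the axis. Atp6v1g3 (-0.81) and Car4 (-0.43) lie under the lower dashed line, and the other members lie between the lines.

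Within each subunit, the intercalated cell isoform was then set against the ubiquitous gene, as differences and not as levels. The isoform's difference was the lower in 5 of 6 pairs. It was lower by a log2 value of -0.90 for Atp6v1g3 against Atp6v1g1. The other pairs were closer, at -0.25 for Atp6v0d2 against Atp6v0d1, -0.23 for Atp6v0a4 against Atp6v0a1, -0.20 for Atp6v0a4 against Atp6v0a2 and -0.17 for Atp6v1c2 against Atp6v1c1. Atp6v1b1 against Atp6v1b2 gave 0.04, with both genes slightly below 0. The pairs with Atp6v0a4 share that gene, and Atp6v1c2 was below the floor. In the d pair the gap came from the ubiquitous gene, at 0.28, while the isoform was at 0.03. The median of the 4 isoforms above the floor minus that of the 12 ubiquitous genes was -0.10, and -0.04 without Atp6v1g3.

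**Figure D3:**
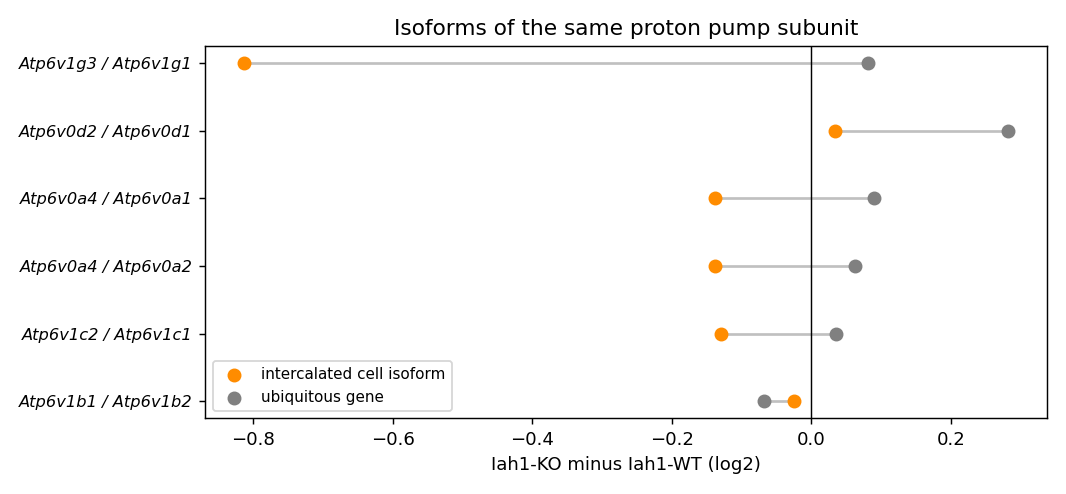
Difference (Iah1-KO minus Iah1-WT, log2) of each intercalated cell isoform and of the ubiquitous gene of the same subunit, joined by a line, with 1 array per genotype. The isoform lies left of the ubiquitous gene in 5 of 6 pairs, by far the widest gap being that of Atp6v1g3 and Atp6v1g1; Atp6v1c2 was below the expression floor.

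Some promoters of ubiquitous subunits carry a sequence feature that the rule did not use. Lysosomal genes are known to share an element around the letters CACGTG, bound by the transcription factors Tfeb and Tfe3. Of the 13 ubiquitous members, 8 had a promoter sequence. Among these 8, 4 held CACGTG, which reads the same on both strands, against 8.09% of all genes in the table. The same 4 held the longer TCACGTG on either strand, which overlaps it, against 4.29% of all genes. Neither motif was found in the 4 intercalated cell isoforms, the 3 genes of other tissues, the 2 accessory genes, Rhcg or Foxi1. Both motifs contain a CpG dinucleotide, and the promoters differ in CpG count. The median was 18 for the ubiquitous genes, 7 over all promoters, 2 for the intercalated cell isoforms and 20 for the accessory genes. The part of CpG count in these shares was not tested. Of 9 carbonic anhydrases with a promoter sequence, Car6, below the floor, held CACGTG. The stretches of 30 bases around the matches are shown, 5′ to 3′ on the strand of the gene, with CACGTG and the adjoining bases of TCACGTG in capitals.
Atp6v0b (chr4:117887339-117887368, minus strand): ggTCACGTGgggtcggcgcaTCACGTGcgc
Atp6v0d1 (chr8:105566050-105566079, minus strand): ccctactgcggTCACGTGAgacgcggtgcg
Atp6v0e (chr17:26676387-26676416, plus strand): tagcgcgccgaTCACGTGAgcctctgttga
Atp6v1a (chr16:44139373-44139402, minus strand): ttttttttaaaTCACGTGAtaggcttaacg
Atp6v0b held 2 matches, beginning 36 and 18 bases before the start site. The match of Atp6v0d1 began 3 bases before its start site, that of Atp6v1a 131 bases before, and that of Atp6v0e at base 4 after it. The differences of these genes had no common direction: 0.28 for Atp6v0d1, 0.00 for Atp6v0e, -0.03 for Atp6v0b and -0.13 for Atp6v1a.

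The carbonic anhydrases, described by where the enzyme sits, included the other member that stood apart. Car4, anchored on the outer face of the membrane in proximal tubule and thick ascending limb, was at 8.93 in the Iah1-KO pool and 9.36 in the Iah1-WT pool. It was 1.35-fold lower, a difference of -0.43 against a local robust SD of 0.09, and ranked 66 from the bottom of 7671 genes. The other membrane enzymes above the floor were higher in the Iah1-KO pool. Car12, a transmembrane enzyme, was at 10.08 in the Iah1-KO pool and 9.99 in the Iah1-WT pool, and Car15, another membrane-anchored enzyme, at 7.87 in the Iah1-KO pool and 7.70 in the Iah1-WT pool. In the cytosol, Car2, the main soluble enzyme of kidney and of intercalated cells, was at 10.84 in the Iah1-KO pool and 10.92 in the Iah1-WT pool. Car3, best known from muscle and fat, was at 7.44 in both pools. Car5b, the mitochondrial enzyme, was at 9.15 in both pools. The 6 enzymes above the floor had a median of -0.002, 3 below 0 and 3 above.

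The other 8 carbonic anhydrases with a probe set of their own were below the floor. They included Car8, Car10 and Car11, proteins of the family without the enzyme activity. Car9 was at 5.26 in the Iah1-KO pool and 5.66 in the Iah1-WT pool, and Car11 at 5.54 in the Iah1-KO pool and 5.21 in the Iah1-WT pool. Over all 13 members below the floor, 8 differences lay below 0 and 5 above, between -0.39 and 0.33, and 0 passed 1.5-fold. Car14 and Car5a were not analysed here, since their probe sets also carry the symbol of another gene. Car2 is also abundant in red blood cells. Of 10 red blood cell markers, 3 had a probe set of their own and 2 of these were above the floor. Bpgm differed by -0.28 and Slc25a37 by -0.08, with a mean log2 value of 7.13 in the Iah1-KO pool and 7.32 in the Iah1-WT pool. Their part in the difference of Car2 was not tested.

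Genes that work with the pump or with the same acid-base load were taken from lists. Of 12 genes listed under assembly and regulation of the V-ATPase, 8 were above the floor, all 8 were higher in the Iah1-KO pool, and 0 passed 1.5-fold. Their median was 0.07, and 52.4% of all genes lay above 0. Tmem199, an assembly factor, differed by 0.24 and reached the floor only in Iah1-KO. Tldc2, of a family that binds the pump, differed by 0.18, and Wdr7 and Dmxl2, partners in the complex that joins V1 to V0, by 0.17 and 0.08. Of the 4 listed genes below the floor, 3 were higher in the Iah1-KO pool, Vma21 by only 0.0006. Tcirg1, another of these 3, at 0.12, encodes a subunit of the pump itself and falls outside the rule by its symbol. The 1 lower gene, Ccdc115, differed by -0.29. The common direction therefore held above the floor and not for the whole list. The proximal tubule list of ammonia and bicarbonate genes held 11 above the floor, 7 of them above 0 and 4 below, and its median was 0.05. Slc38a3, the glutamine transporter that feeds ammonia formation, differed by -0.21, the amino acid transporters Slc7a8 and Slc1a1 by 0.15 and 0.09, and Pck1, an enzyme that controls glucose synthesis, by -0.08. Slc34a1, the phosphate transporter of proximal tubule, was at 12.67 in the Iah1-KO pool and 12.62 in the Iah1-WT pool. It is 1 marker, 1 of the 7 genes of this list above 0. Slc4a4 and Glud1, at -0.07 and -0.08, were among the 4 below 0. The part of cell composition in the difference of Car4 was not tested. The 7 distal and connecting tubule markers above the floor gave a median of 0.04, with Calb1 and Klk1 both at -0.14, Slc12a3 at 0.08 and Trpm6 at 0.07.

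**Figure D4:**
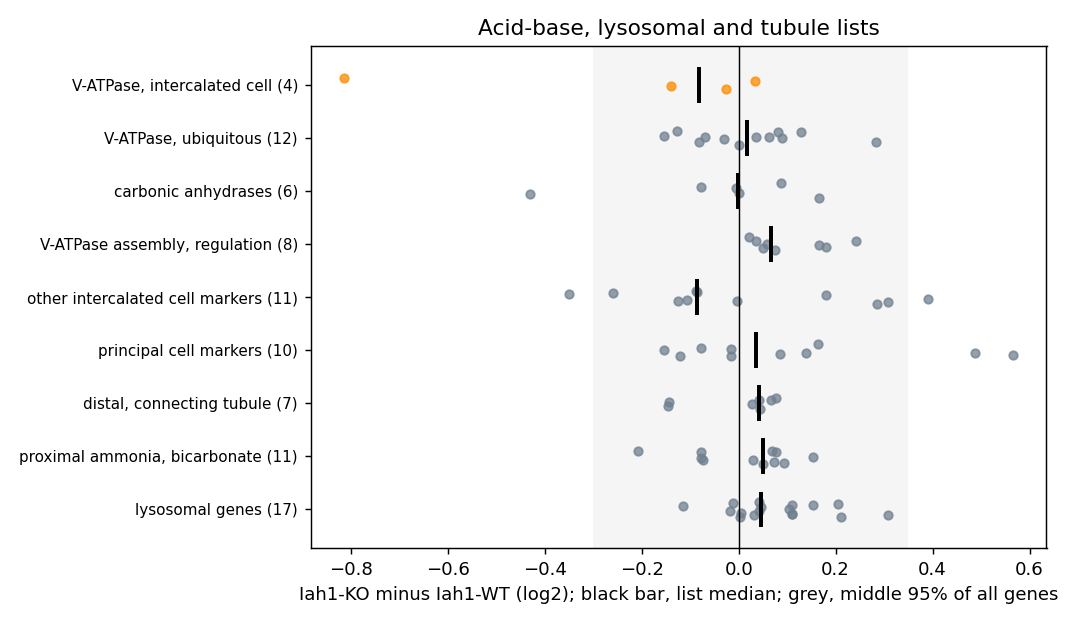
Differences (Iah1-KO minus Iah1-WT, log2) of the genes above the floor in each list, 1 point per gene, with the number of genes in brackets, the list median as a black bar and the middle 95% of all genes in grey. Atp6v1g3 stands alone at the left (-0.81), the intercalated cell markers outside the members spread from -0.35 to 0.39, and the assembly and regulation genes all lie right of 0.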

How the data were processed

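Kidney RNA was measured on 2 arrays, 1 per genotype. The submitters' processing notes name RMA and Affymetrix Expression Console, version 1.3.0; the deposited values are log2 values, 1 for each probe set. RMA forces the arrays to a common distribution, so a shift of most transcripts would not be visible, and it compresses differences of dim probe sets. Detection calls and raw intensities were not used here.

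GEO's platform annotation gave a single symbol to 23521 of 41345 probe sets, several to 1814 and none to 16010, and only the first were used. The brightest probe set stood for a gene. All 42 member symbols matched RefSeq (GRCm38.p6) by Entrez number. Differences are Iah1-KO minus Iah1-WT without further scaling. The local robust SD is the median absolute deviation times 1.4826 over the 500 genes nearest in mean value, and describes spread over genes, not over mice. Python 3.11.15, numpy 2.4.6, pandas 2.3.3 and statsmodels 0.14.6 were used, and the procedure was tested on simulated data. The members and lists were chosen with earlier results of these data known. Named are all members above the floor, and from each other list up to 4 genes with the largest differences plus Slc4a1, Slc26a4, Kit and Aqp2; Slc34a1 and genes below the floor were named after their values were seen. Alternatives were floors of 5, 7, 6 on the mean or none, the mean over probe sets, centring, loess (span 0.3), list means and a threshold of 2-fold.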

Additional observations from a re-analysis of the deposited data

How the results depend on the processing

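No paired analysis was possible because each genotype has 1 array. The count of members at least 1.5-fold lower, 1 for the main setting, was 1 under every alternative floor, probe set rule, centring and loess correction, and 0 at a threshold of 2-fold. It was 0 without Atp6v1g3, an alternative chosen after the data were seen. The count at least 1.5-fold higher was 0 in each of them. The list mean in place of the median gave -0.24 for the intercalated cell isoforms, where the median was -0.08, and -0.25 for their gap to the ubiquitous subunits, where it was -0.10. These means hold Atp6v1g3 (-0.81) among 4 genes. The other alternative medians stayed within the local spread: the gap lay between -0.17 and -0.04, and the intercalated cell median between -0.13 and -0.03, and the ubiquitous median between -0.0003 and 0.04. Of 90 alternative values of 30 named members, 88 moved by less than the spread of genes at the same level. The others came from the mean over probe sets: Atp6v1g1 was at -0.06 there, against 0.08 for its brightest probe set, and Car3 at 0.29, against 0.00, and both have further probe sets that lie below the floor. Most of the 90 values could hardly move. A gene with 1 probe set keeps its value under the mean over probe sets, and centring shifts every gene by the same 0.008. The count of 88 therefore says little about how stable the differences are. Without replicate arrays, the difference of no member, Atp6v1g3 and Car4 included, can be separated from array noise.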

Other observations

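Lysosomal genes, which depend on the ubiquitous pump, had a median difference of 0.05 over 17 genes above the floor. Of these, 14 lay above 0, 3 below and 0 beyond 1.5-fold, while 52.4% of all genes lay above 0. Tfe3, a transcription factor that binds the CACGTG element, was at 7.02 in the Iah1-KO pool and 6.71 in the Iah1-WT pool, a difference of 0.31. The lysosomal protease gene Ctsa and the cholesterol transporter gene Npc1 both differed by 0.21, and Hexa, a subunit of beta-hexosaminidase, by 0.15. Tfeb was below the floor, at 4.55 in the Iah1-KO pool and 4.74 in the Iah1-WT pool. The part of Tfe3 or Tfeb in the lysosomal differences was not tested. Atp6v0d2 is also an osteoclast and macrophage gene. Markers of those cells gave no common direction. Of 10 listed, 4 were above the floor, and these 4 were higher in the Iah1-KO pool, where 52.4% of all genes were. Lyz2, at 6.74 in the Iah1-KO pool and 6.11 in the Iah1-WT pool, was the 1 gene of these 4 beyond 1.5-fold. Cx3cr1 differed by 0.41 and reached the floor only in Iah1-KO, Csf1r differed by 0.11 and Acp5 by 0.07, beside 0.03 for Atp6v0d2. Of the 6 markers below the floor, 5 were lower in the Iah1-KO pool: the macrophage marker Adgre1 differed by -0.73, Mmp9 by -0.56, Dcstamp by -0.38, Ocstamp by -0.29 and Cd68 by -0.23. The sixth, the osteoclast protease gene Ctsk, differed by 0.35.

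Some members had a further probe set. For Atp6v1b2 the dimmer one, at 6.94 in the Iah1-KO pool and 7.18 in the Iah1-WT pool, differed by -0.24, against -0.07 for the brighter. For Car3 it was at 3.89 in the Iah1-KO pool and 3.31 in the Iah1-WT pool, against nearly equal values in the brighter.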
